A study of Mus musculus with 8 samples.

Results

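Epithelial cells of the lacrimal gland (LG) were followed on 2 diets through 10 marker genes: the keratins Krt5, Krt7, Krt8, Krt14, Krt15, Krt17, Krt18 and Krt19, and the adhesion genes Epcam and Cdh1. They were taken from the table by symbol, and all 10 were found among the 24552 genes of the count table. The exorbital LGs came from female C57BL/6J mice, and there were 8 libraries. Of these, 4 were made from LGs of mice fed ad libitum (AL) and 4 from mice under 40% calorie restriction (CR), with both diets given from 6 to 7 months of age for 4 months, so that LGs were taken at 10 to 11 months. The study asked which LG genes CR affects. No genetic change and no agent other than diet is named for either group, and males were not included. The labels do not say whether a library holds 1 mouse or a pool, so the p-values measure the spread between these libraries.

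Keratins are the intermediate filament proteins of epithelial cells, and each filament is built from a type I keratin paired with a type II keratin. In glands, KRT8 and KRT18 form the filaments of the secretory and ductal cells, joined in ducts by KRT7 and KRT19, whereas KRT5 and KRT14 are the pair of basal and myoepithelial cells, the contractile cells that wrap the acini. E-cadherin, the product of Cdh1, joins neighbouring epithelial cells at adherens junctions, and EPCAM is a surface glycoprotein of most simple epithelia.

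Reads came from the 3' ends of transcripts, with 12051881 to 22156511 reads counted on genes per library. A level is given here as CPM (counts scaled to a common library size), using relative log expression (RLE) factors, and levels of different genes are not scaled by length because a transcript is counted at its end only. A count of 3, taken as the floor of detection, corresponds to 0.152 to 0.231 CPM. In every library the 10 most counted genes took 62.4% to 73.4% of the reads. Lacrimal acinar markers summed to 183165 to 223036 CPM in AL and 76363 to 194051 CPM in CR. The markers of the labelled tissue were thus abundant in all 8 libraries, but not equally. The most counted, Obp1a, was at 147750 to 163029 CPM in AL and 152614 CPM in CR replicate 4. In CR replicates 1 to 3 it was at 89888.4, 66826.8 and 58965.5 CPM. Transcripts known from other tissues differed between libraries, and their origin was not tested. The 8 transcripts of a list abundant in the parotid, a salivary gland that lies near the exorbital LG, summed to 12017 to 41279 CPM in AL and 54535 to 299409 CPM in CR, and 3 of them were called higher in CR: Prp2 (0 to 1.23 CPM against 20.7 to 921 CPM), Prh1 (0 to 9.24 against 217 to 7255 CPM) and Prb1 (1.22 to 90.4 against 233 to 5503 CPM). The 9 keratins of the hair follicle list summed to 173 counts in AL replicate 4 and to 0 to 9 in each other library. The skeletal muscle genes Acta1 and Mylpf were highest in CR replicates 2 and 4, as given with the marker lists. Not all muscle genes followed, with Myh4 at 20.8 CPM in CR replicate 2 and 0.610 CPM in CR replicate 4.

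**Figure D1:**
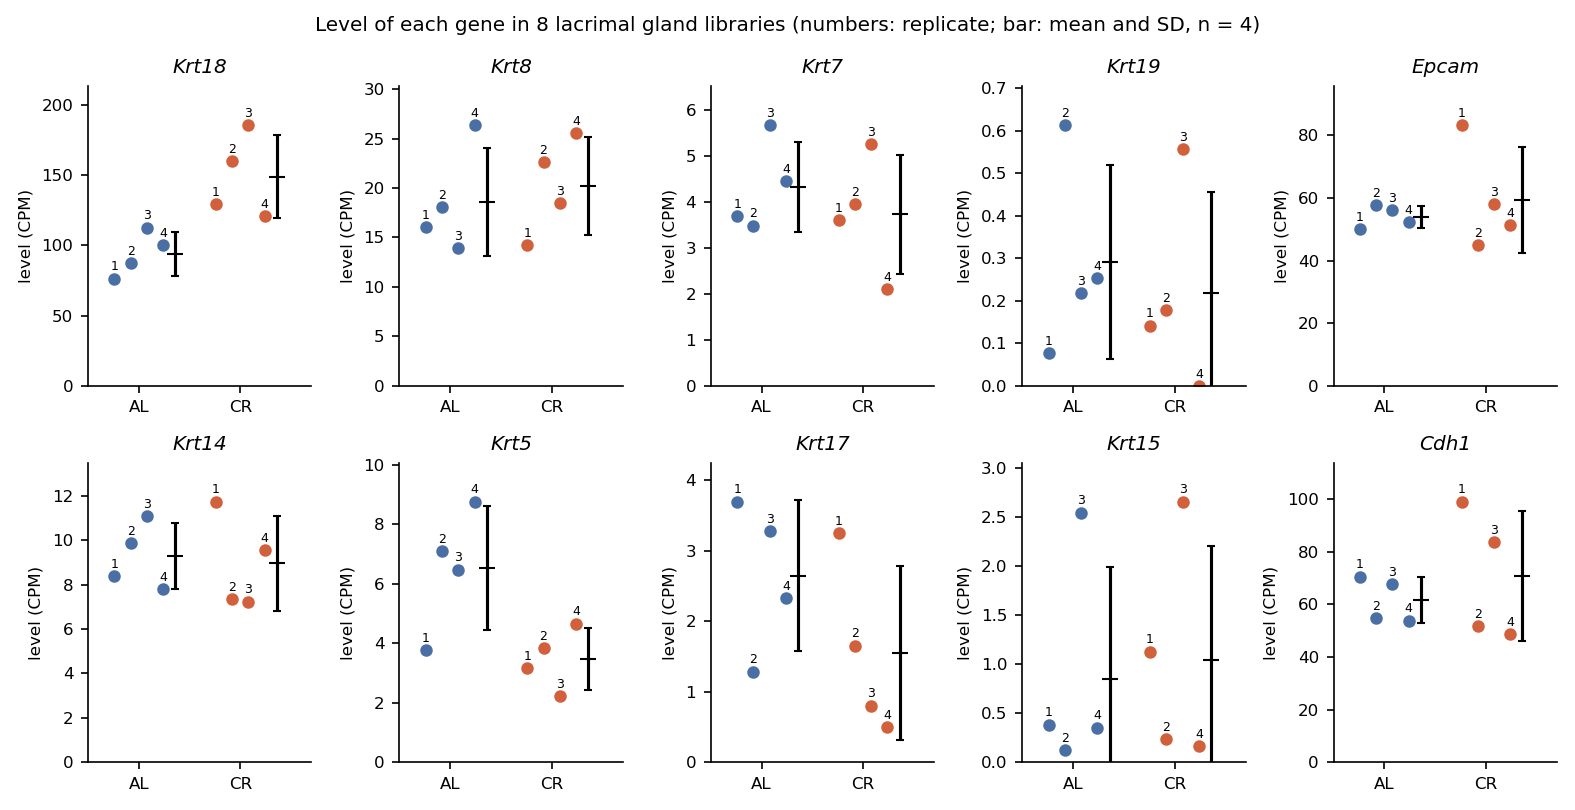
Levels of the 10 genes (CPM, axis from 0) in the AL (blue) and CR (orange) libraries, with 1 panel per gene, points numbered by replicate, and bars for the mean and SD (n = 4). The groups are apart for Krt18, with 76.4 to 113 CPM in AL and 121 to 186 CPM in CR, and they overlap in the other panels.

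The keratin genes sit in clusters that match their types, except for Krt18. On GRCm38 with GENCODE vM21, the type II genes Krt5 (chr15:101707070-101712898, minus strand), Krt7 (chr15:101411043-101430313, plus strand) and Krt8 (chr15:101996698-102004482, minus strand) share chromosome 15 with the type I gene Krt18 (chr15:102028180-102032027, plus strand), which lies 23697 bases from Krt8. The other type I genes are on the minus strand of chromosome 11: Krt15 (chr11:100131758-100135928), Krt19 (chr11:100140810-100148665), Krt14 (chr11:100203162-100207548) and Krt17 (chr11:100256217-100261029). Epcam is at chr17:87635979-87651129 and Cdh1 at chr8:106603351-106670246, both on the plus strand. In the last 600 bases of each of the 10 genes, 0% of 75-base windows were shared with another gene, although the keratins are paralogs. An exon of 1 gene on the opposite strand overlaps Krt5, Krt7 and Krt8 each, and whether counting used the strand is not given in the sources used here, so reads of the partner cannot be told apart for those 3.

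The promoters of Krt18, Krt8 and Krt7 are shown because the levels of the last 2 are read below against Krt18, and because Krt8 and Krt18 are neighbours. RefSeq's promoter table for GRCm38.p6 held 6 of the 10 genes. Each window has 300 bases, 250 before the RefSeq start and 50 after it, 5' to 3' on the gene's strand, and the RefSeq start of Krt7 lies inside the longer GENCODE gene. Capitals mark, on either strand, the TATA box letters TATAAA, the GC box letters GGGCGG and the CACCC box letters CCACCC.
Krt18 (chr15:102027966-102028265, plus strand): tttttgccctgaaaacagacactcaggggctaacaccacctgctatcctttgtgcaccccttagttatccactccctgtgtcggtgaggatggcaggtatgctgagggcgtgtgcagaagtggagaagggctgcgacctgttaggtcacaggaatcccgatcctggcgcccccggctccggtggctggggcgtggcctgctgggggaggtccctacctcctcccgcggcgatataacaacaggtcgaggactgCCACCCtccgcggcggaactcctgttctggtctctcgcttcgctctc
Krt8 (chr15:102004293-102004592, minus strand): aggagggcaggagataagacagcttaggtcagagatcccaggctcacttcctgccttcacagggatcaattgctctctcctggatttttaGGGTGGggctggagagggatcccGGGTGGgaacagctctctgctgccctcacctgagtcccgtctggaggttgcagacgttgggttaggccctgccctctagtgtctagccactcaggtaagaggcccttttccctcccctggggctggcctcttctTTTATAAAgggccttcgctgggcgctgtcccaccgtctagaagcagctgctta
Krt7 (chr15:101412153-101412452, plus strand): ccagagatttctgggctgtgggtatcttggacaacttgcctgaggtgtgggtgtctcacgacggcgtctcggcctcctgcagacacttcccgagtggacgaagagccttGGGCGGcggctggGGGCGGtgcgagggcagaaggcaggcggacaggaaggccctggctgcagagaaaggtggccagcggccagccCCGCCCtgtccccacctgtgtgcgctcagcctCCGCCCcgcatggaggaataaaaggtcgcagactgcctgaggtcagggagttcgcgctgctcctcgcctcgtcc
The window of Krt7 held 4 matches to the GC box letters and was 66.3% GC. That of Krt8 held 2 CACCC matches and a pair of overlapping TATA matches on opposite strands at 58% GC. That of Krt18 held 1 CACCC match at 61.3% GC. Relative to the RefSeq start, the TATA matches of Krt8 begin at -3 and -1, so they lie across the start. The CACCC match of Krt18 begins at 3, after the start. Of all 32851 promoters in the table, 35.7% held the GC box letters, 31.5% the CACCC box letters and 13.6% the TATA box letters. These are matches of letters only, and binding was not measured.

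Of the 10 genes, 8 were counted often enough for edgeR's quasi-likelihood test across 11211 genes, with p-values adjusted by Benjamini-Hochberg over all of them. Calls required both an adjusted p below 0.05 and a 1.5-fold difference, which are the cut-offs the study used. None of the 8 was called (0 of 8), against 222 of all genes tested (1.98%), with 134 higher (1.2%) and 88 lower (0.785%) in CR. At an unadjusted p under 0.05 there were 2 of the 8 genes, Krt18 and Krt5, against 16.7% of all genes, while DESeq2 and limma voom each called 1 (12.5%), Krt18, against 6.26% and 3.54% of all genes by the same tools. Of the 8 log2 fold changes, 4 were above 0, as were 51.1% of all genes, with a median of 0.03 against 0.01 for all genes. The AL and CR libraries did not overlap for 1 of the 8, Krt18 (12.5%), as for 9.79% of all genes (CR higher in 4.58%, lower in 5.2%), so this share is near that of the whole table.

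**Figure D2:**
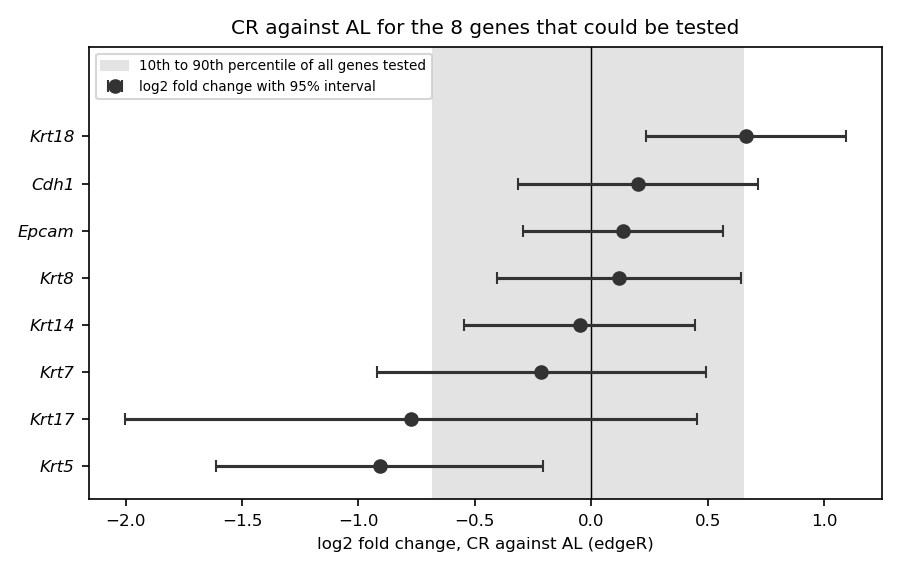
Log2 fold change of CR against AL for the 8 tested genes, with 95% intervals from edgeR, and the band between the 10th and 90th percentiles of all genes tested (-0.68 to 0.65). The intervals of Krt18 (0.23 to 1.09) and Krt5 (-1.61 to -0.21) exclude 0, though neither gene passed after adjustment over all genes.

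Krt18, the type I keratin of simple epithelia, was the most counted keratin in every library. In order of replicates 1 to 4, as in all lists below, its level was 76.4, 87.1, 113 and 99.99 CPM under AL and 129, 160.0, 186 and 121 CPM under CR. No AL library reached the level of any CR library, with CR replicate 4 closest to AL replicate 3. The mean was 94.0 ± 15.7 CPM in AL and 149 ± 29.7 CPM in CR (SD, n = 4 each). The log2 fold change was 0.66 (SE 0.20, 95% interval 0.23 to 1.09), or 1.58-fold (1.18 to 2.13), with an unadjusted p of 0.00552 and an adjusted p of 0.109 by edgeR's quasi-likelihood test, and 90.2% of all genes had a smaller log2 fold change. In a whole gland, fewer cells of a type and less RNA per cell cannot be told apart, here and below.

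Whether Krt18 was called depended on the test. DESeq2 gave a log2 fold change of 0.66 with an adjusted p of 0.0318, and limma voom with sample quality weights gave 0.76 with 0.0281. With the replicate number as a block, edgeR gave 0.66 with an adjusted p of 0.0296, and without CR replicate 4, the library with the lowest Krt18 level of its group, 0.75 with 0.0413. Over all other alternatives that keep the diets as the only term, the adjusted p lay between 0.0870 and 0.256. The parotid transcripts differ between the diets in the same libraries: their mean log2 CPM was 3.75 to 7.95 in AL and 9.66 to 13.1 in CR. With that mean as a covariate, Krt18 had a log2 fold change of 0.76, an SE of 0.40 and an adjusted p of 0.558 by edgeR. The SE was 0.20 without it. The covariate does not overlap between the diets, so fits with it, here and below, cannot divide diet from parotid level.

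**Figure D3:**
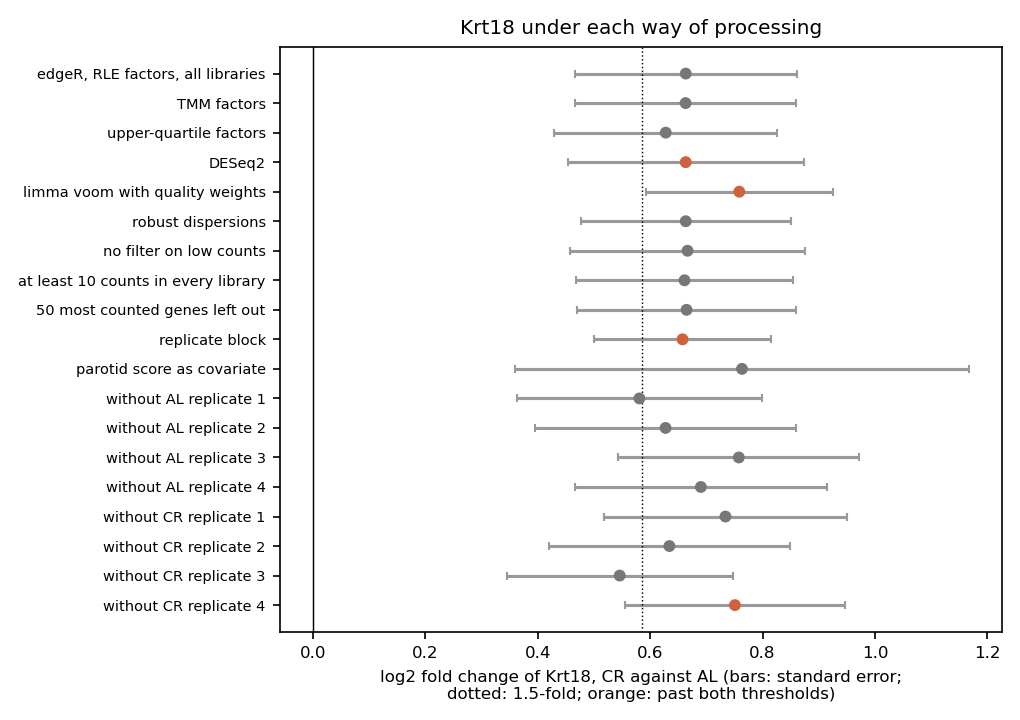
Log2 fold change of Krt18 with its standard error (bars) under each way of processing, with a dotted line at 1.5-fold and orange points where Krt18 was called. The estimates lie between 0.55 and 0.76, and 4 points are orange.

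Krt8, the type II partner of Krt18 in simple epithelia, ordered the libraries in another way. Its level was 16.0, 18.1, 13.9 and 26.4 CPM under AL and 14.2, 22.6, 18.5 and 25.6 CPM under CR. The highest library of each diet was replicate 4, and the ranges overlapped almost fully. CR differed from AL by a log2 fold change of 0.12 (SE 0.24, 95% interval -0.40 to 0.64; adjusted p = 0.870 by edgeR), with means of 18.6 ± 5.45 and 20.2 ± 4.95 CPM (SD, n = 4 each). Without CR replicate 4 it was -0.02. With the parotid covariate it was 0.84.

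Krt7, a type II keratin of duct cells and simple epithelia, was at 3.69, 3.49, 5.68 and 4.46 CPM under AL and 3.60, 3.96, 5.26 and 2.11 CPM under CR. Replicate 3 was the highest library of each diet and CR replicate 4 the lowest of all. The log2 fold change was -0.22 (SE 0.33, 95% interval -0.92 to 0.49; adjusted p = 0.814 by edgeR). It ranged from -0.42 to -0.018 when 1 library was left out.

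Krt19, a type I keratin of duct cells, was near the floor. It had 1, 10, 3 and 5 counts under AL and 2, 3, 9 and 0 counts under CR. At or under 3 counts were 2 AL and 3 CR libraries, and the 0 of CR replicate 4 allows up to 0.166 CPM. The mean log2(CPM + 1) was 0.35 in AL and 0.27 in CR, and the difference of -0.09 had an exact two-sided permutation p of 0.600. At this depth a small difference could not be seen.

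Krt5, the type II keratin of basal and myoepithelial cells, had the lowest log2 fold change of the 8 tested genes. It was at 3.77, 7.11, 6.48 and 8.77 CPM under AL and 3.18, 3.84, 2.23 and 4.66 CPM under CR. AL replicates 2, 3 and 4 lay above all CR libraries, and AL replicate 1 lay within the CR range. The means were 6.53 ± 2.08 and 3.48 ± 1.03 CPM (SD, n = 4 each). CR differed from AL by a log2 fold change of -0.91 (SE 0.32, 95% interval -1.61 to -0.21), with an unadjusted p of 0.0154 and an adjusted p of 0.173 by edgeR, so that the gene was not called. AL replicate 4, which also held the hair keratins, had the highest Krt5 level, and without it the log2 fold change was -0.73. With the parotid covariate it was -0.19.

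Krt14, the type I partner of Krt5, had the log2 fold change nearest to 0. Its level was 8.39, 9.86, 11.1 and 7.80 CPM under AL and 11.7, 7.33, 7.24 and 9.54 CPM under CR. The CR libraries spanned the AL range on both sides. The log2 fold change was -0.05 (SE 0.23, 95% interval -0.55 to 0.44; adjusted p = 0.949 by edgeR).

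Krt17, a type I keratin of basal cells that is known to be induced in stressed epithelium, was at 3.69, 1.29, 3.28 and 2.33 CPM under AL and 3.25, 1.66, 0.804 and 0.499 CPM under CR. The 2 lowest libraries were CR replicates 3 and 4, but CR replicate 1 lay within the AL range. CR differed from AL by a log2 fold change of -0.77, with an interval too wide to place it on either side of 0 (SE 0.56, 95% interval -2.001 to 0.45; adjusted p = 0.548 by edgeR). It was -1.40 without CR replicate 1 and -0.48 without CR replicate 4. Krt17 had -2.27 with the parotid covariate (SE 1.13, adjusted p = 0.534 by edgeR), the largest shift among the 8 members tested.

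Krt15, a type I keratin of basal and hair follicle stem cells, was high in the same replicate number of both diets. It had 5, 2, 35 and 7 counts under AL and 16, 4, 43 and 3 counts under CR. Replicate 3 was the highest library in both diets, at 2.55 CPM in AL and 2.66 CPM in CR. The difference of the mean log2(CPM + 1) was 0.15, with an exact two-sided permutation p of 0.857. After adjustment over the 2 rare keratins, both exact permutation p-values were 0.857.

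Epcam, a homophilic adhesion protein of simple epithelia, was the steadiest of the 10 genes in AL. Its level was 50.1, 57.6, 56.1 and 52.2 CPM under AL and 83.2, 45.0, 58.1 and 51.2 CPM under CR. CR replicate 1 stood above all other libraries, and without it the log2 fold change was -0.06 in place of 0.14 (SE 0.20, 95% interval -0.29 to 0.57; adjusted p = 0.805 by edgeR). The coefficient of variation between libraries was 6.4% in AL and 28.3% in CR.

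Cdh1, which encodes E-cadherin, had 70.4, 54.7, 67.7 and 53.7 CPM under AL and 98.9, 51.8, 83.6 and 48.5 CPM under CR. In both diets replicates 1 and 3 were the high libraries and replicates 2 and 4 the low ones. The log2 fold change was 0.20 (SE 0.24, 95% interval -0.32 to 0.71; adjusted p = 0.753 by edgeR). It ranged from 0.0017 to 0.34 when 1 library was left out, and was -0.14 with the parotid covariate. Under the same covariate Krt7, Krt14 and Epcam had -0.33, -0.20 and 0.08. The intervals for Epcam and Cdh1 leave room for up to 1.48-fold and 1.64-fold higher levels in CR.

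Counting error was below the observed spread between libraries for all 10 members in both diets, by different margins. For Krt18 the counting error alone gives a coefficient of variation of 2.6% in AL and 2.0% in CR, against an observed 16.7% and 19.9%. For Krt5 it gives 9.7% and 13.2% against an observed 31.8% and 29.6%, and for the rare Krt15 28.6% and 24.6% against an observed 133% and 111%. The margin was narrower for Krt19, at 45.9% and 53.5% against an observed 78.5% and 109%, and for Epcam in AL, at 3.4% against 6.4%. Molecular identifiers are not named in the sources used here, and reads without them are not independent molecules, so these figures and the floor cover counting error only.

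Ratios between members were compared within each library, where library scaling cancels: 3 pair a type II with a type I keratin, 4 a type I with another type I keratin, and 1 the adhesion genes. The ratio of Krt7 to Krt18 was 4.89, 4.04, 5.07 and 4.48% under AL and 2.81, 2.49, 2.85 and 1.77% under CR. The CR libraries all lay below the AL libraries. The means were 4.62 ± 0.458% and 2.48 ± 0.502% (SD, n = 4 each), a log2 difference of -0.92 (SE 0.18), with an exact two-sided permutation p of 0.0286, the smallest that 4 against 4 libraries allow, and 0.229 after adjustment over 8 ratios. No ratio could pass 0.05 after that adjustment unless several reached the smallest p, and 0 of 8 passed, with 1 under 0.05 unadjusted by the exact permutation test. Taken singly, Krt7 had a log2 fold change of -0.22 with overlapping groups, and Krt18 had 0.66 without overlap. Ratios over Krt18 share this denominator and are not independent of each other.

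The other ratios overlapped between the diets. Krt8 was 20.1 ± 5.78% of Krt18 in AL and 14.1 ± 5.06% in CR, a log2 difference of -0.53 with an exact permutation p of 0.200. Krt5 was 45.2, 72.1, 58.7 and 112% of Krt14 under AL and 27.3, 52.6, 31.1 and 49.0% under CR. AL replicate 4 was the only library with more Krt5 than Krt14, and the log2 difference was -0.82 with an exact permutation p of 0.0857. Krt14 was 10.0 ± 1.595% of Krt18 in AL and 6.38 ± 2.52% in CR (-0.72, exact permutation p = 0.0857). The log2 differences of Krt17 to Krt14, Krt19 to Krt18, Krt15 to Krt14 and Epcam to Cdh1 were -0.93, -1.44, 0.40 and -0.04, with exact permutation p-values of 0.171, 0.200, 0.771 and 0.857. The adjusted values of the ratios were 0.229 to 0.857. Taken within pairs of libraries with the same replicate number, a pairing tried after the data were seen, 3 ratios were lower in CR in 4 of 4 pairs, those of Krt7 to Krt18, Krt8 to Krt18 and Krt5 to Krt14, with log2 differences of -0.92 (SE 0.14), -0.53 (SE 0.15) and -0.82 (SE 0.16). Each had an exact sign-flip permutation p of 0.125, the smallest that 4 pairs allow, so that this test could not pass 0.05.

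**Figure D4:**
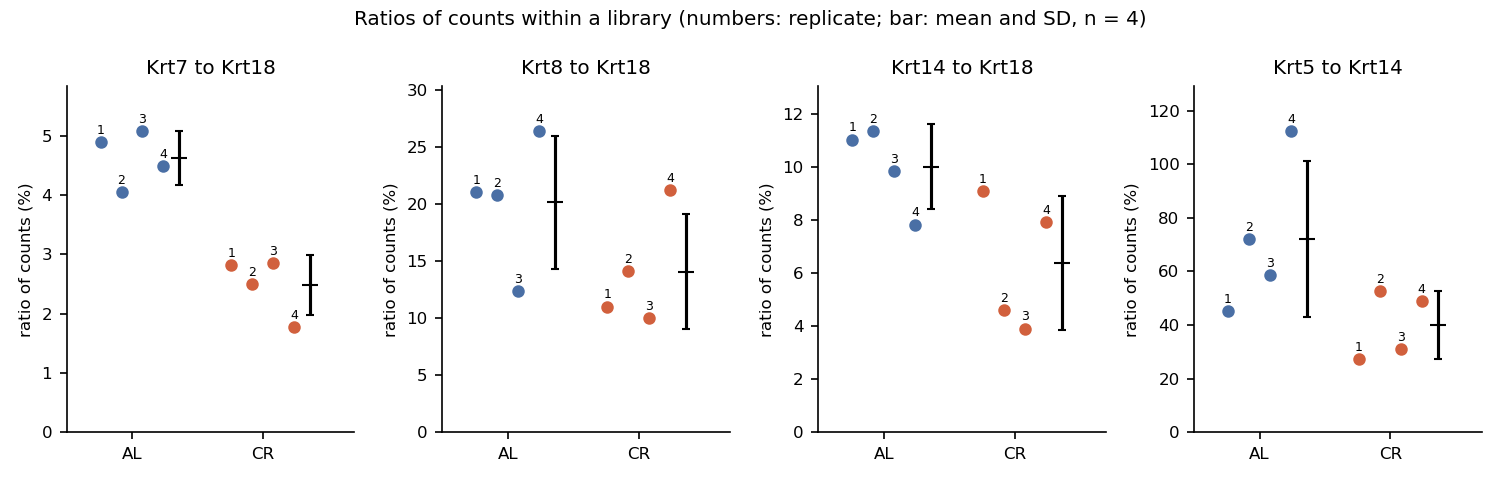
Ratio of the counts of 2 keratins within each library (percent, axis from 0) for 4 of the pairs in AL (blue) and CR (orange), with points numbered by replicate and bars for the mean and SD (n = 4). For Krt7 to Krt18 the CR libraries (1.77 to 2.85%) lie below the AL libraries (4.04 to 5.07%), and the groups overlap for the other 3 pairs.

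Krt8 and Krt18 made up most keratin reads. All 55 keratins of the table together were at 142 to 196 CPM in AL and 184 to 245 CPM in CR, and the 8 members held 76.7% to 90.9% of these counts. Krt8 and Krt18 together took 63.4% to 72.3% of keratin counts in AL (66.3 ± 4.06%) and 74.1% to 83.2% in CR (78.6 ± 3.72%), without overlap. Krt18 alone took 51.0% to 64.4% in AL and 61.2% to 75.7% in CR. Krt5 and Krt14 together took 8.46% to 10.2% in AL (9.32 ± 0.939%) and 3.86% to 8.12% in CR (6.00 ± 1.99%), also without overlap. Shares of 1 total move against each other, and these were described after Krt18 had been seen, so no test was made.

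**Figure D5:**
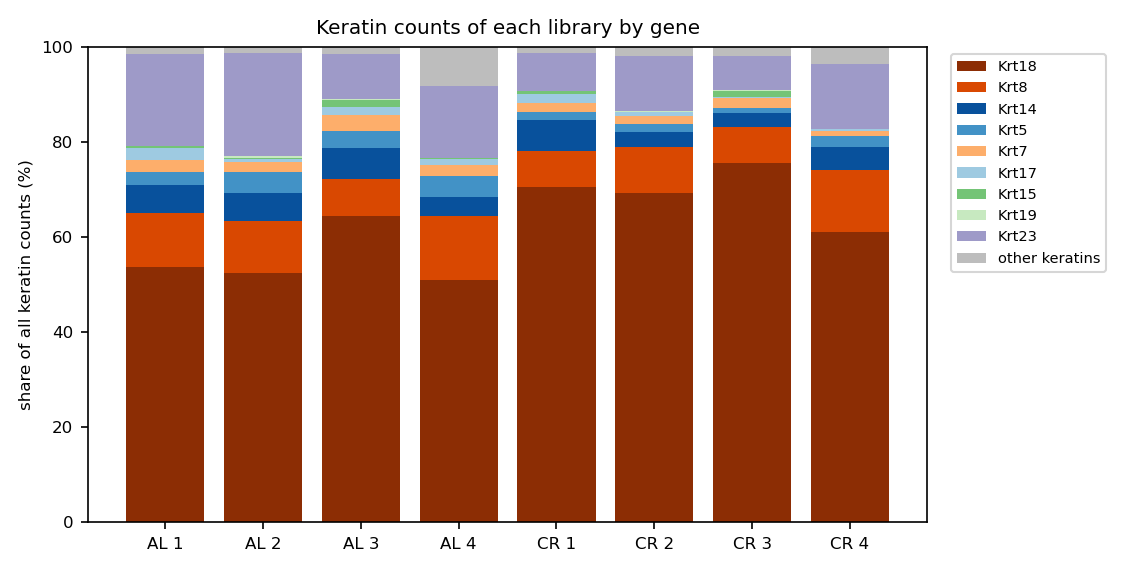
Share of each keratin in all keratin counts (percent) in the 8 libraries, stacked to 100%, with Krt23 shown apart from the other keratins. Krt18 (bottom) takes 51.0% to 64.4% in AL and 61.2% to 75.7% in CR.

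Most of the other keratins were absent or rare. Of 47, 15 had 0 counts in all libraries and 34 had fewer than 10 counts over the 8 libraries, and 2 could be tested. Neither was called by edgeR, DESeq2 or limma voom, and 0 had an unadjusted p under 0.05. Krt23, a type I keratin of simple epithelia, was at 27.5 ± 8.07 CPM in AL and 21.5 ± 6.48 CPM in CR (log2 fold change -0.35, adjusted p = 0.569 by edgeR). Krt10, a type I keratin of cornifying epithelium, had 9, 31, 4 and 120 counts under AL and 8, 48, 19 and 107 under CR, highest in replicate 4 of both diets (log2 fold change 0.21, adjusted p = 0.942 by edgeR). In AL replicate 4 the hair keratins Krt71, Krt25, Krt27 and Krt31 had 72, 55, 13 and 13 counts, and the hair follicle gene Tchh had 154. Of the 10 hair genes, 1 could be tested, Tchh, at a log2 fold change of -0.90 (adjusted p = 0.678 by edgeR) that turned to 1.14 without AL replicate 4, and their sum was 16.6 CPM in AL replicate 4 and 0.283 to 2.72 CPM elsewhere. The squamous list had 2 tested genes, Krt10 and Sbsn (0.23, adjusted p = 0.898 by edgeR), with a median of 0.22, and summed to 1.85 to 8.77 CPM in AL and 2.83 to 7.27 CPM in CR, with Sprr1b at 0. The part of hair or squamous cells in the keratin values was not tested.

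Genes that act with the keratins and with E-cadherin were read from the same fit as lists, each described by its count and median beside the all-gene values of 1.98% by edgeR (6.26% by DESeq2, 3.54% by limma voom, and 16.7% at an unadjusted p under 0.05) and 0.01. In the adherens junction list, 0 of 10 were called, 3 had an unadjusted p under 0.05, DESeq2 called 1 and limma voom 0, and the median log2 fold change was -0.31. Vcl, encoding vinculin, which ties junctions to actin, was at 6.68 ± 2.12 CPM in AL and 2.81 ± 1.27 CPM in CR, with all CR libraries below all AL libraries (log2 fold change -1.24, adjusted p = 0.126 by edgeR). Ctnnb1, encoding beta-catenin, the partner of E-cadherin, had -0.50 (adjusted p = 0.184 by edgeR). Of the list, 7 log2 fold changes were below 0 and 3 above. Among the latter was Afdn (0.35, adjusted p = 0.305 by edgeR), with all CR libraries above all AL libraries, named after its values were seen.

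Of 15 desmosome and hemidesmosome genes, which anchor keratin filaments at the membrane, 0 were called by edgeR, DESeq2 or limma voom and 2 had an unadjusted p under 0.05, with a median of -0.01. Dsp, encoding desmoplakin, which links keratins to the desmosome, was at 127 ± 21.4 CPM in AL and 86.4 ± 19.8 CPM in CR (-0.55), and Perp, encoding a desmosomal membrane protein, at 53.8 ± 8.997 and 75.8 ± 11.5 CPM (0.50), both with an adjusted p of 0.185 by edgeR. Of 17 tight junction genes, 0 were called by edgeR, 3 by DESeq2 and 2 by limma voom, and 4 had an unadjusted p under 0.05, with a median of -0.04. Tjp3, encoding the scaffold ZO-3, had a log2 fold change of -1.10 with an adjusted p of 0.0508 by edgeR, and Cldn4, encoding a claudin, 2.47 with 0.0595. Cldn4 was rare, with 13, 5, 2 and 9 counts under AL and 46, 50, 55 and 18 under CR. Its levels overlapped, at 0.146 to 1.001 CPM in AL and 0.998 to 3.40 CPM in CR.

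Among 17 epithelial regulators and surface proteins, 1 was called higher, with a list median of 0.22 and 3 genes at an unadjusted p under 0.05. Klf5, a zinc finger transcription factor of epithelial cells, rose from 9.33 ± 1.68 to 20.2 ± 4.79 CPM (log2 fold change 1.11, SE 0.22, adjusted p = 0.0275 by edgeR), and its CR libraries all lay above its AL libraries. When 1 library was left out at a time, Klf5 was called in 3 of 8 fits, and without AL replicates 1, 2 or 3 or CR replicates 2 or 3 its adjusted p was 0.0730 to 0.101 by edgeR. With the parotid covariate Klf5 had a log2 fold change of 1.04 and an adjusted p of 0.506 by edgeR. Esrp2, an epithelial splicing regulator, had -1.34 (adjusted p = 0.151 by edgeR). Of 6 tested genes of the mesenchymal list, 0 were called by edgeR, 2 by DESeq2 and 0 by limma voom, 2 had an unadjusted p under 0.05, and all 6 log2 fold changes were below 0, with a median of -0.62. Fn1, encoding fibronectin, had -1.74 (adjusted p = 0.0607 by edgeR), and Cdh11, a mesenchymal cadherin, was at 0.924 to 2.91 CPM in AL and 0 to 0.636 CPM in CR (adjusted p = 0.0635 by edgeR).

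Markers of the cell types that could carry these keratins were set beside them. All 6 tested markers of basal and myoepithelial cells had log2 fold changes below 0, as Krt5 did, with a median of -0.75 and 4 at an unadjusted p under 0.05. Of the 6, 0 were called by edgeR, 1 by DESeq2 and 0 by limma voom. Mylk, encoding myosin light chain kinase, had -0.95 (adjusted p = 0.128 by edgeR), and Cnn1, encoding calponin, -0.97 (adjusted p = 0.187 by edgeR). Nearest to 0 was Trp63 at -0.25 (adjusted p = 0.862 by edgeR), named after its value was seen. The list summed to 126 to 220 CPM in AL and 62.7 to 127 CPM in CR, with 0 markers absent from all libraries. Its part in the Krt5 values was not tested, and Krt14, which marks the same cells, had -0.05.

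Of 6 duct and ionocyte markers, 0 were called by edgeR and 1 each by DESeq2 and limma voom, and 2 had an unadjusted p under 0.05, with a median of 0.05. Ltf, encoding lactoferrin, had -1.16 (adjusted p = 0.0811 by edgeR) and Wfdc2 1.40 (adjusted p = 0.196 by edgeR). Of 10 lacrimal acinar markers 1 was called higher, with 2 called by DESeq2, 2 by limma voom and 2 at an unadjusted p under 0.05, and with 5 log2 fold changes above 0, 5 below and a median of 0.09. Below 0 were the secreted products Ltf, Scgb2b24 (-0.97), Obp1a (-0.78), Lcn11 (-0.42) and Lpo (-0.04), named after their values were seen except for Ltf, and none of them was called. The marker called was Sox10, a transcription factor of acinar cells, which rose from 15.3 ± 2.52 to 67.1 ± 28.6 CPM (log2 fold change 2.13, adjusted p = 0.00746 by edgeR) and stayed called when any 1 library was left out, but not with the parotid covariate (1.28, adjusted p = 0.527 by edgeR). The parotid list had 8 of 8 genes above 0, a median of 4.01 and 8 of 8 genes at an unadjusted p under 0.05, with 3 called by edgeR, 8 by DESeq2 and 4 by limma voom. Prp2 stayed called when any 1 library was left out, Prh1 was called in 6 of 8 such fits (not without AL replicate 2 or 3, adjusted p = 0.0676 and 0.0692 by edgeR), and Prb1 was called without AL replicate 4 or CR replicate 4 only, with an adjusted p of 0.0550 to 0.117 by edgeR otherwise. Limma voom called neither Prp2 nor Prh1.

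Genes of non-epithelial cells were read in the same way. Of 8 fibroblast genes 2 were called lower, Col3a1 (log2 fold change -2.79, adjusted p = 0.000672 by edgeR) and Col1a1 (-2.50, 0.00157). DESeq2 called 3, limma voom called 2, and 5 had an unadjusted p under 0.05. Below 0 were 7 and above 0 was 1, Dcn (0.22, adjusted p = 0.663 by edgeR), named after its value was seen. The list had a median of -0.99 and summed levels of 175 to 296 CPM in AL and 145 to 210 CPM in CR. Col3a1 and Col1a1 stayed called when any 1 library was left out. With the parotid covariate neither was called by edgeR. Col3a1 then had -2.50 (SE 0.47, adjusted p = 0.198 by edgeR) and Col1a1 -1.78 (SE 0.47, adjusted p = 0.324 by edgeR). Without the covariate the SEs were 0.24 and 0.26. All 5 leukocyte genes tested were below 0 and had an unadjusted p under 0.05, and DESeq2 called 5 of them and limma voom 1. By edgeR 1 was called lower, Lyz2 (-1.48, adjusted p = 0.0312 by edgeR), and Ptprc, the pan-leukocyte CD45 gene, had -1.66 (adjusted p = 0.0635 by edgeR), with a median of -1.48 and sums of 64.3 to 221 CPM against 39.8 to 45.7 CPM. Lyz2 was called in 2 of the 8 fits that leave out 1 library, those without AL replicate 1 or CR replicate 4, and its adjusted p was 0.0619 to 0.116 by edgeR in the others. Lyz2 had -0.30 with the parotid covariate (adjusted p = 0.858 by edgeR). Endothelial (0 of 5), adipocyte (0 of 4) and skeletal muscle (0 of 4) markers were not called by edgeR, had 1, 3 and 2 genes at an unadjusted p under 0.05, and had medians of 0.44, 1.73 and 2.19. DESeq2 called 0, 1 and 1 of them and limma voom 0, 1 and 0. Their leading genes were Emcn (1.009) and Cdh5 (0.96), Adipoq (2.09) and Cfd (1.84), and Mylpf (2.47) and Acta1 (2.26). The muscle values rest on CR replicates 2 and 4, where Acta1 was at 19.3 and 21.6 CPM and Mylpf at 7.39 and 3.66 CPM, while CR replicates 1 and 3 lay within the AL range. Adipoq was at 1.52 to 4.47 CPM in AL, at 11.1, 7.98 and 18.7 CPM in CR replicates 1 to 3 and at 2.83 CPM in CR replicate 4. No mesothelial marker could be tested, and Upk3b and Wt1 were at 0. The part of these cells in the keratin values was not tested.

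Members did not share one profile over the 8 libraries. The distance between 2 genes was the root mean square difference of their log2(CPM + 1), each centred on its own mean. The closest members were Krt14 and Epcam (0.19) and Epcam and Cdh1 (0.21), Krt8 and Krt18 were 0.48 apart, and Krt17 and Krt18 were farthest (0.83). Among 6380 genes with at least 5 CPM, those most like Krt18 were Polr2i (0.14), March2 (0.14) and Slc29a1 (0.14). Those most like Krt8 were Dtd1 (0.07), Larp1 (0.10) and Aff1 (0.10), and those most like Krt5 were Pxdn (0.17), Bdh1 (0.19) and Cnpy3 (0.20).

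For Krt7 the nearest genes were Syne2, Flii and Il6st (0.14 to 0.15), for Krt14 Cnot6l, Bcap31 and Tsr2 (0.08 to 0.09), and those named for Krt17 are Mrpl46 and Tbc1d23 (0.22 and 0.24). Those nearest to Epcam were Timm13, Ndufb9 and Lamp1 (0.09 to 0.12), and those nearest to Cdh1 were Hmgn1, Usp46 and Cbx5 (0.09 to 0.11). None of the genes named here as nearest was called by edgeR. The distances describe these 8 libraries, which the genes share, and carry no test.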

How the data were processed

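LG RNA was sequenced as 8 libraries from 3' ends in single reads of 75 bases, and the authors deposited raw counts, made with cutadapt, STAR on mm10 and HTSeq. The authors also deposited log2 values, which equal log2 of the RLE-scaled counts plus 1 within 0.000124 of values recomputed from the counts, and these were not used further. Of the deposited 24557 entries, 5 with repeated symbols were dropped, and 483 had no Gene ID.

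Groups follow the diet in the labels. Counts were tested with edgeR 4.0.16 in R 4.3.3 after filterByExpr, with RLE factors and the quasi-likelihood test, which left 11211 genes and a biological coefficient of variation of 34.7%. The pipeline was tested on simulated data for the comparison of CR with AL over 11211 genes: of 88 genes simulated at a log2 fold change of 2 in size, 80 were called, of 106 simulated at 1, 14, and of 10727 unchanged genes, 6. Rare keratins and ratios, with 0.5 counts added to each side, were compared by exact two-sided permutation tests, and the ratios also within pairs of the same replicate number.

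Replicate numbers are shared between the diets. Deviations from the group means correlated across genes at 0.208, 0.114, 0.298 and 0.535 between libraries of the same number, so the number was also fitted as a block, although the labels do not say what it stands for and AL replicate 3 with CR replicate 1 gave 0.408. With the block, 700 genes were called, 388 higher and 312 lower, and Krt18 among them.

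The members and all gene lists were chosen with earlier results of these data known. The lists were adherens junction, desmosome and hemidesmosome, tight junction, epithelial regulators, mesenchymal switch, other keratins, and markers of basal and myoepithelial, duct and ionocyte, lacrimal acinar, parotid, squamous, hair follicle, fibroblast, leukocyte, endothelial, adipocyte, muscle and mesothelial cells. Named from each list are the called genes and, with 0 or 1 called, the 2 with the smallest p, the other keratins of at least 1 CPM and the 3 genes most like each tested member. A gene most like Krt17 is not reported here. The hair keratins of AL replicate 4 were named after their values were seen. As alternatives, factors came from TMM or the upper quartile, tests from DESeq2 1.42.0 and limma 3.58.1 voom with quality weights, and the fit was repeated with robust dispersions, other filters on low counts, leaving out the 50 most counted genes, any fold change, the block, the parotid covariate and leaving out each library in turn. Reads and other tissues of the study were not analysed here.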

Additional observations from a re-analysis of the deposited data

Results flagged for a closer look

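The level of Krt15 in AL replicate 3 was 2.55 CPM, far above the 0.123 to 0.385 CPM of the other AL libraries, and CR replicate 3 had 2.66 CPM. For the same reason the ratio of Krt15 to Krt14 in AL replicate 3, 23.3%, stood apart from its group. These were 2 of 36 groups of 4 libraries in which a lone high or low value was sought with Dixon's test, and chance alone gives about 1 in 20.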

How the results depend on the processing

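The 134 genes called higher, 88 lower, 0 members and 8 list genes by edgeR became 385, 317, 1 and 28 with DESeq2, 237, 160, 1 and 13 with limma voom, and 388, 312, 1 and 28 with the replicate number as a block. With no filter on low counts 271 were higher, 165 lower and 23 list genes called. With the parotid covariate these were 4, 0 and 0 (605, 465 and 17 at 1.5-fold and an unadjusted p under 0.05). Leaving out 1 library gave 35 to 453 genes higher, 25 to 247 lower, 0 to 1 members and 4 to 20 list genes. Each count was highest without CR replicate 4, and 35 to 75 genes were higher when any library other than AL replicate 4 or CR replicate 4 was left out. The member called was Krt18 each time, and the block changed no other member's call. The cause was not tested.

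Signs of the members' log2 fold changes held under the other scalings, filters and tools. The exceptions were Cdh1 with the parotid covariate (-0.14) and some fits without 1 library. The latter ranged from -0.016 (no CR replicate 4) to 0.34 for Krt8, from -0.20 to 0.044 for Krt14, above 0 without AL replicate 3 or CR replicate 2 (0.039 and 0.042) as well as without CR replicate 3, and from -0.063 (no CR replicate 1) to 0.26 for Epcam. The log2 ratio of Krt15 to Krt14 ranged from -0.38 (no CR replicate 3) to 1.10, with -0.20 without AL replicate 2. That of Epcam to Cdh1 ranged from -0.15 to 0.057 (no CR replicate 3), with 0.043 and 0.0039 when AL replicate 2 or AL replicate 4 was left out. Those of Krt17 to Krt14 and Krt19 to Krt18 kept their sign, at -1.27 to -0.47 and -1.97 to -0.71. On the log2(CPM + 1) scale, Krt15's difference ranged from -0.19 (no CR replicate 3) to 0.51, with -0.039 without AL replicate 2, and Krt19's from -0.21 to 0.027 (no AL replicate 2), with 0.0031 without CR replicate 4. With the parotid covariate the median log2 fold change turned from below to above 0 for the adherens junction (0.09), tight junction (0.20), other keratin (1.58) and hair follicle (3.45) lists. It turned from above to below 0 for the duct (-0.31) and endothelial (-0.05) lists, and the desmosome median was -0.38. The parotid median was -0.94, which tells nothing, because the covariate is the mean of those same genes. Leaving out 1 library moved the median across 0 for the duct (-0.10, no CR replicate 4, to 0.24, no AL replicate 4), acinar (-0.025, no CR replicate 2, to 0.16), tight junction (-0.16, no CR replicate 4, to 0.086, no AL replicate 4), desmosome (-0.16, no AL replicate 1, to 0.051, no CR replicate 4), other keratin (-0.53, no CR replicate 4, to 0.56, no AL replicate 4), squamous (-0.071, no AL replicate 1, to 0.74, no AL replicate 4) and hair follicle (-1.24 to 1.14, no AL replicate 4) lists. The same moved it by over 1.5 times for the adherens junction (-0.55, no CR replicate 4), regulator (0.087, no AL replicate 3, and 0.10, no CR replicate 2), mesenchymal (-0.40, no AL replicate 3) and leukocyte (-0.96, no AL replicate 3) lists. Of the 24 genes most like a member, 14 remained with 0.1 CPM added before the log and 12 among genes of at least 1 CPM. With 4 libraries a diet, differences smaller than the intervals given could not be seen.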
